A study of Mus musculus with 2 samples.

Results

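Inflammasomes are cytosolic protein complexes that turn the detection of a microbe or of cell damage into cell death and cytokine release. A sensor (NLRP3, NLRP1B, NLRC4 with its partner NAIP5, or AIM2) assembles on its trigger, the adaptor ASC (gene Pycard) polymerises on it, and the protease caspase-1 (Casp1) is recruited and activated. Caspase-1, or the lipopolysaccharide-binding caspase encoded by Casp4, then cuts gasdermin D (Gsdmd), which forms pores in the cell membrane. In the liver these genes are best known from Kupffer cells, the resident macrophages of the sinusoids, and from recruited monocytes and neutrophils. The 9 genes Nlrp3, Nlrp1b, Nlrc4, Naip5, Aim2, Pycard, Casp1, Casp4 and Gsdmd were chosen by symbol among the 31053 genes of the gene list, and each had 1 gene row.

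The series profiled liver immune cells of 8-week-old mice by droplet-based single-cell RNA sequencing (10x Genomics), after collagenase IV digestion and a sort (gate not stated in the labels). The 2 samples carry the strain name RedMUC298trTg. They are labelled WT, which the series describes as Rcrin flox mice, and Rcrin KO, described as a conditional knockout in the liver. The labels name neither the driver of the deletion nor the number of animals pooled. Both samples were deposited with the same matrix, with no byte differing, so that all 11192 barcodes were shared and 1 matrix stood for 2 labels. No gene row has the symbol Rcrin, and the deletion could not be checked. The genotypes were not compared, and all values describe 1 sample of unknown genotype, without replicates, tests or p-values. Transcripts were counted by unique molecular identifiers (UMI, 1 per captured transcript). Levels are the UMI of a gene per 1000000 UMI, abbreviated CPM, after summing over the cells of a class. Intervals are exact 95% intervals (Poisson for CPM, Clopper-Pearson for shares of cells, conditional for ratios of CPM). They cover counting error only, neither the variation between animals nor that between cells.

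The matrix held 67037274 UMI, and a barcode held 502 to 93990 of them with a median of 4212.5. After filtering, 10366 barcodes remained, 351 of which (3.39%) were called doublets and left out. Marker gates placed 8737 cells with 52398214 UMI into classes, 15 of which held at least 30 cells. The rest comprised 945 cells with markers of 2 classes and 333 with too few markers. The largest classes held 2561 B-like, 1838 T-like, 856 neutrophil-like and 854 sinusoidal endothelial-like cells. Endothelial-like and hepatocyte-like cells were thus present although the label names immune cells. The smallest ranked classes were plasma-like (83), cDC1-like (62), cDC2-like (62), basophil-like (44) and hepatocyte-like cells (35). Conventional dendritic cells of type 1 and 2 are abbreviated cDC1 and cDC2. Leading genes of the classes included Jchain and Igha in plasma-like, Mcpt8 and Cyp11a1 in basophil-like, Cd5l and Folr2 in Kupffer-like and Retnlg and S100a8 in neutrophil-like cells. Of the 35 hepatocyte-like cells only 14 lay in their main cluster, and their values rest on 0 to 6 UMI per gene. The B cell genes Cd79a (785 CPM) and Ms4a1 (324 CPM) were also found in hepatocyte-like cells, against 2649 and 1047 CPM in B-like cells and at most 323 and 58.4 CPM in the other classes of at least 30 cells. Their part in the values of hepatocyte-like cells was not tested. The median depth was 20096 UMI in plasma-like, 14425 in Kupffer-like, 8755 in classical monocyte-like, 4974.5 in basophil-like and 2570 in neutrophil-like cells. Shares of cells with a UMI are therefore also given after each cell was thinned to 1000 UMI.

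The genes lie on 7 mouse chromosomes of the mm10 (GRCm38) assembly. Casp1 (chromosome 9, 5298517 to 5307265, plus strand) and Casp4 (5308828 to 5336783, plus strand) are neighbours with 1562 bases between them. Pycard spans chromosome 7 from 127989708 to 127993867 on the minus strand, and its exons overlap Gm45205, a transcript model of the opposite strand that is not among the counted genes. Nlrp3 (59541568 to 59566956, plus strand) and Nlrp1b (71153102 to 71230733, minus strand) are both on chromosome 11. Aim2 (chromosome 1, 173350879 to 173466040, plus strand) overlaps Cadm3 on the other strand outside their exons, and the gated cells held 67 UMI of Cadm3. Naip5 is on chromosome 13 (100211739 to 100246323, minus strand), Gsdmd on chromosome 15 (75862327 to 75867408, plus strand) and Nlrc4 on chromosome 17 (74425438 to 74459142, minus strand). Naip5 has the close neighbouring paralog Naip6 and Nlrp1b the paralog Nlrp1a, so that reads could have been split between copies and their values are uncertain.

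The 250 bases before the transcript start are shown for Pycard and Nlrp3, the adaptor and the sensor with the highest levels in single classes. They come from RefSeq (GRCm38.p6), written 5′ to 3′ along the gene's strand, and capitals mark motif matches.
Pycard, chr7:127993868-127994117, minus strand: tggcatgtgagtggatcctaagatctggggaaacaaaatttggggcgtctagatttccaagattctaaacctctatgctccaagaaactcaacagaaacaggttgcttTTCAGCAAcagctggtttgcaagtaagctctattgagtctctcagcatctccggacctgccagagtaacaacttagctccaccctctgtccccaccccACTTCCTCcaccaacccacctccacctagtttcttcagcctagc
Nlrp3, chr11:59541319-59541568, plus strand, upstream of the first of 2 starts: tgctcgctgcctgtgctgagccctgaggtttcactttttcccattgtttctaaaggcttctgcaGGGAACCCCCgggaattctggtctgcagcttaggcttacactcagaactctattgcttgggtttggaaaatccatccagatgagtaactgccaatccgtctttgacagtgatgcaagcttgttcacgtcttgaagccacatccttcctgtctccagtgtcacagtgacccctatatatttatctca
On both strands 5 motifs were searched, a PU.1-type ETS site (GAGGAAGT), the interferon-stimulated response element, an AP-1 site (TGANTCA), a C/EBP site (TTGCNNAA) and the NF-kB consensus, whose matches may overlap. Pycard held 1 PU.1-type site, a motif found in 2.441% of all 32851 windows of this length, and 1 C/EBP site, found in 9.564%. Nlrp3 held 1 NF-kB match at its first start and none at its second, against 7.251% of all windows. Among the 8 members with a window, the PU.1-type site also occurred before Aim2 and the first start of Nlrp1b, C/EBP before Nlrp1b and Nlrc4, and NF-kB before Casp4 and Naip5. No interferon-stimulated response element or AP-1 site, held by 2.977% and 6.749% of all windows, was found in any of them. A match describes the sequence only, and none of these data measure binding.

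Kupffer-like and classical monocyte-like cells each had 5 members above the remaining cells, and every other class had at most 1. The members were read against the other gated cells with a threshold of 2-fold and a pseudocount of 1 CPM. Nlrp1b, with 98 UMI, missed the minimum of 100 UMI for this count, so that 8 of the 9 members entered it beside 11690 genes in all. In Kupffer-like cells 5 of 8 were higher (Nlrp3, Nlrc4, Naip5, Aim2 and Casp1), where 11.3% of all genes were, and Pycard was lower, as were 19.6% of all genes. Classical monocyte-like cells also had 5 of 8 higher (Nlrp3, Naip5, Casp1, Casp4 and Gsdmd) against 6.22% of all genes, and 0 lower against 27.6%. The median log2 fold of the 8 members was 1.18 in Kupffer-like cells (-0.23 over all genes) and 1.05 in classical monocyte-like cells (-0.40). With a pseudocount of 10 CPM, 4 members were past the threshold in Kupffer-like and 3 in classical monocyte-like cells. Giving each cell equal weight left 3 in Kupffer-like cells.

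In 6 further classes 1 of 8 members was higher, a count that says little beside the shares of all genes, and in sinusoidal endothelial-like cells it was below that share. Nonclassical monocyte-like cells had Naip5 higher (6.28% of all genes), ILC1-like cells, the liver-resident relatives of natural killer (NK) cells, had Aim2 (6.31%), and sinusoidal endothelial-like cells had Casp4 (20.3%). Neutrophil-like and basophil-like cells had Nlrp3 (7.97% and 6.39% of all genes), and plasma-like cells had Pycard (4.91%). No member was higher in B-like, T-like, NK-like, plasmacytoid dendritic-like, cDC1-like, cDC2-like or hepatocyte-like cells, where 6.59%, 6.3%, 5.58%, 7.55%, 5.95%, 5% and 12.1% of all genes were. Lower members were most numerous in plasma-like cells, with 6 of 8 against 46.4% of all genes. Casp1 was only just past the threshold there, with a log2 fold of -1.01. B-like, T-like and hepatocyte-like cells each had 5 of 8 lower, against 28.6%, 25.4% and 34.9% of all genes. In ILC1-like, cDC1-like and sinusoidal endothelial-like cells 4 of 8 were lower (23.6%, 31.2% and 21.1% of all genes), and in plasmacytoid dendritic-like cells 3 (25.8%). Neutrophil-like and basophil-like cells had 2 of 8 lower, Nlrc4 and Pycard, below the shares of all genes (64.9% and 49.9%), and NK-like cells had 2 (23.8%). Nonclassical monocyte-like and cDC2-like cells had 0 lower, against 30.4% and 26.7% of all genes.

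**Figure D1:**
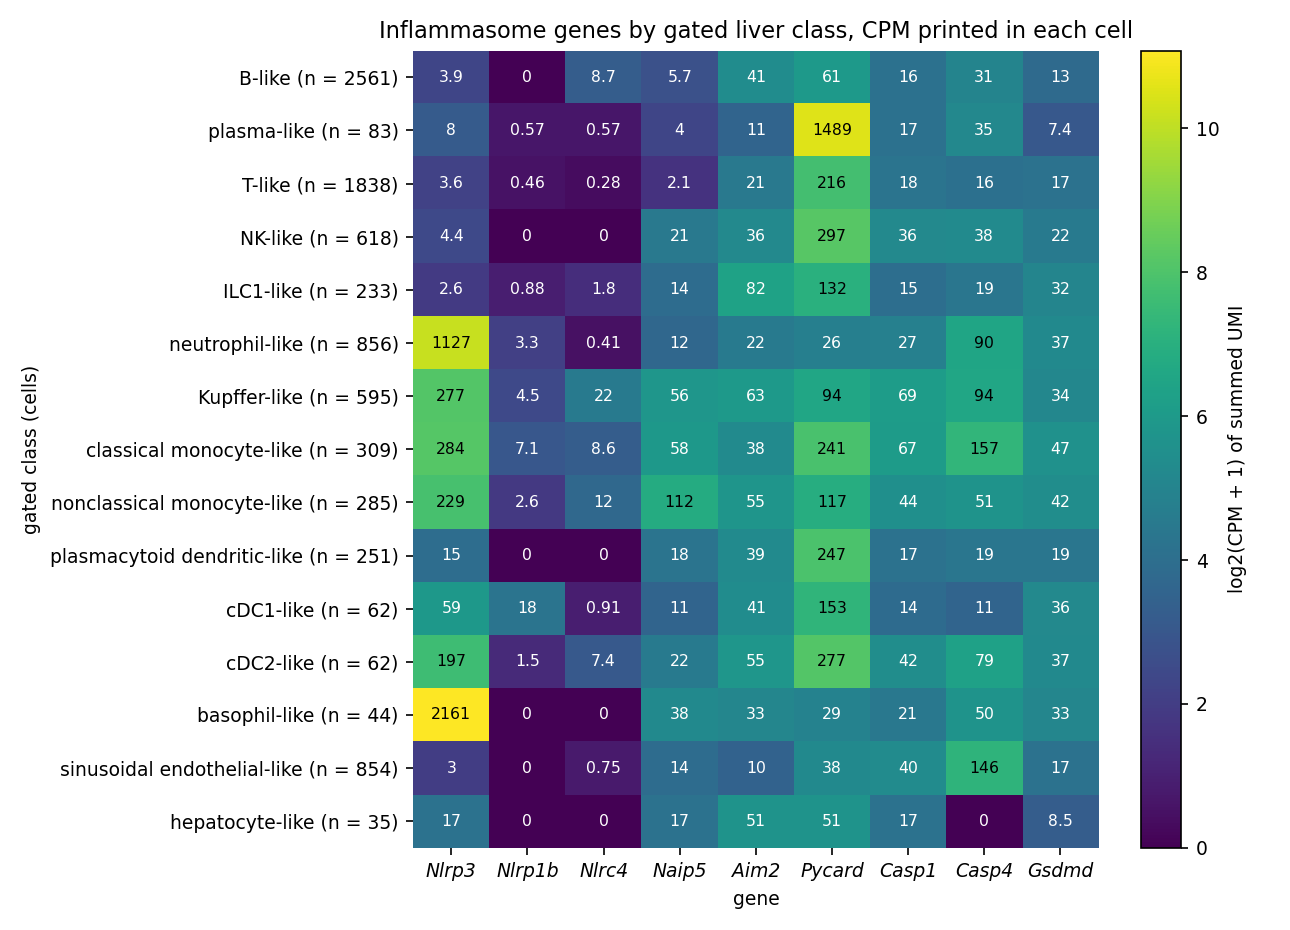
Levels of the 9 genes (columns) in the 15 classes of at least 30 cells (rows), coloured by log2(CPM + 1) of the summed UMI, with the CPM printed in each field. Nlrp3 stands out in basophil-like and neutrophil-like cells and Pycard in plasma-like cells, while the plasma-like row is low for the other genes.

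Nlrp3, the sensor of potassium efflux and membrane damage, was highest in basophil-like cells, granulocytes of type 2 immunity. All 44 of these cells held at least 1 Nlrp3 UMI (100%; interval 92.0 to 100%), and single cells ranged from 106 to 9003 CPM with a median of 2281. The summed level was 2161 CPM (1979 to 2355). Neutrophil-like cells followed with 1127 CPM (1086 to 1170), and the ratio between both was 1.92 (1.74 to 2.11). Then came classical monocyte-like (284 CPM) and Kupffer-like cells (277 CPM), which were not told apart (ratio 1.03, 0.945 to 1.11), and nonclassical monocyte-like (229) and cDC2-like cells (197), which were not either. cDC1-like cells were 3.34-fold below cDC2-like cells, at 58.9 CPM. All remaining classes lay between 2.63 and 17.1 CPM without separable neighbours. After thinning, 72.7% of basophil-like, 55.5% of neutrophil-like and 24.5% of Kupffer-like cells held a Nlrp3 UMI. In sinusoidal endothelial-like cells, taken as the background, the share was 0.358% after thinning and 1.87% before it, at a median depth of 7212 UMI.

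Within the neutrophil gate Nlrp3 followed maturation markers. The 42 cells in which the secondary granule genes Ngp, Camp and Ltf made up at least 1% of UMI, a sign of immature neutrophils, had 40.8 CPM (21.1 to 71.2; 12 UMI). The other 814 had 1276 CPM (1229 to 1325), a ratio of 31.3 (17.9 to 60.7). Pycard went the other way, with 67.9 CPM (41.5 to 105; 20 UMI) in the 42 cells and 20.5 (14.9 to 27.5) in the 814. So did Naip5, with 34.0 CPM (16.3 to 62.5; 10 UMI) and 8.84 (5.32 to 13.8). Casp4 went with Nlrp3, and the intervals of the remaining members overlapped between both groups. Over the whole gate a single cell held 0 to 26 Nlrp3 UMI, with a median of 804 CPM. Genes of the early stress response, which tissue digestion can raise, were highest in both granulocyte classes with the most Nlrp3. Over the other classes these genes followed Nlrp3 only in part. The 13 immediate early genes summed to 30932 CPM in basophil-like, 19425 in neutrophil-like and 18867 in Kupffer-like cells. Nonclassical monocyte-like cells had 11823 CPM and the other classes 2255 to 9754. Sinusoidal endothelial-like cells, with 2.99 CPM of Nlrp3, had 9754 CPM of these genes, above classical monocyte-like (7691) and cDC2-like cells (6843). The 10 NF-kB priming genes summed to 54383 CPM in basophil-like cells, largely Ccl4 with 35600 CPM, to 18311 in neutrophil-like cells and to at most 7910 elsewhere. Their part in the Nlrp3 levels was not tested.

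Nlrp1b, a sensor that is activated by proteolysis, was sparse, with 98 UMI in all gated cells. cDC1-like cells had the highest level, 18.1 CPM (11.1 to 27.97; 20 UMI), and 21.0% of them held a UMI at a median depth of 17262 UMI. With clusters in place of gates the level was 11.7 CPM. Classical monocyte-like cells had 7.13 CPM, and the ratio between the 2 classes was 2.54 (1.30 to 4.97). cDC2-like cells had a single UMI. No UMI was found in 6 classes, B-like cells among them, where 0 of 9182177 UMI allows up to 0.327 CPM by a floor of 3 UMI (exact upper limit 0.402).

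Nlrc4, which assembles with NAIP proteins on bacterial flagellin and secretion system parts, was highest in Kupffer-like cells with 21.8 CPM (18.8 to 25.2; 185 UMI), and these cells held 56.7% of all its UMI. Nonclassical monocyte-like cells followed with 12.2 CPM. B-like cells had 8.71 CPM (6.91 to 10.8; 80 UMI), a level not told apart from that of classical monocyte-like cells (8.56), while T-like cells had 3 UMI in 1838 cells. The ratio of B-like to T-like cells was 31.5 (10.4 to 156). Plasma-like cells had 1 UMI, and neutrophil-like cells had 1 UMI in 856 cells.

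Naip5, which binds flagellin and hands the signal to NLRC4, peaked in a different myeloid class than its partner. Nonclassical monocyte-like cells, the patrolling monocytes, had 112 CPM (96.3 to 130). This was 1.93-fold (1.55 to 2.41) above classical monocyte-like cells with 58.1 CPM, which were not told apart from Kupffer-like cells with 55.5. The share of cells with a UMI after thinning was 12.6% in nonclassical and 4.90% in classical monocyte-like cells, against 0.327% in T-like cells with their median depth of 5126 UMI. The paralogs Naip2 (70.6 CPM) and Naip6 (59.7 CPM) were also highest in nonclassical monocyte-like cells. The sparse Naip1 (66 UMI) was instead highest in Kupffer-like cells, with 6.72 CPM (5.09 to 8.71) against 3.21 in nonclassical monocyte-like cells. NK-like cells had 21.3 CPM of Naip5, T-like cells 2.12 and plasma-like cells 3.99.

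Aim2, the sensor of cytosolic double-stranded DNA, was spread most evenly among the sensors, with UMI in all 15 classes and a range from 10.2 to 81.7 CPM. ILC1-like cells were highest with 81.7 CPM (65.9 to 100), 1.30-fold (1.03 to 1.63) above Kupffer-like cells with 62.7 and 2.29-fold (1.70 to 3.08) above NK-like cells with 35.7. The lead over Kupffer-like cells was smaller with at most 5% mitochondrial UMI (73.7 and 71.7 CPM) and with clusters in place of gates (72.3 and 68.5). It was not smaller with the mean of single-cell CPM (78.6 and 55.0) or the reduced CPM total (104 and 75.3). From Kupffer-like to T-like cells (21.2 CPM) no neighbours in the order were told apart. Sinusoidal endothelial-like (10.2 CPM) and plasma-like cells (10.8) were lowest. B-like cells had 40.9 CPM, 3.78-fold (2.39 to 6.35) above plasma-like cells. After thinning, 7.30% of ILC1-like cells held an Aim2 UMI and 0.238% of sinusoidal endothelial-like cells, at median depths of 4642 and 7212 UMI.

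Pycard, the adaptor, was highest in plasma-like cells, the antibody-secreting cells. Plasma-like cells had 1489 CPM (1433 to 1547; 2612 UMI). The next class, NK-like cells, had 297 CPM (277 to 319), a ratio of 5.01 (4.63 to 5.42). With mitochondrial, ribosomal, haemoglobin, immunoglobulin and abundant hepatocyte genes out of the CPM total, plasma-like cells had 2980 CPM and the ratio was 7.85. NK-like, cDC2-like (277), plasmacytoid dendritic-like (247) and classical monocyte-like cells (241) formed a run in which no neighbours were told apart, and T-like cells had 216. Below them were cDC1-like (153), ILC1-like (132), nonclassical monocyte-like (117) and Kupffer-like cells (93.7). B-like cells, from which plasma cells arise, had 61.1 CPM (56.1 to 66.4), and the ratio of plasma-like to B-like cells was 24.4 (22.2 to 26.7). The lowest levels were in the classes with the highest Nlrp3, basophil-like cells with 29.2 CPM (7 UMI) and neutrophil-like cells with 26.2 (64 UMI). Sinusoidal endothelial-like cells, with 2.99 CPM of Nlrp3, had 37.7 CPM of Pycard and were not told apart from basophil-like cells (ratio 1.29, 0.617 to 3.24).

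The share of plasma-like cells with a Pycard UMI was 96.4% before thinning and 53.7% after it, against 22.9% of NK-like, 15.2% of T-like and 5.43% of B-like cells after it. In neutrophil-like cells the thinned share was 2.94% (6.78% before it), and 0 of 31 hepatocyte-like cells held a UMI after thinning.

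**Figure D2:**
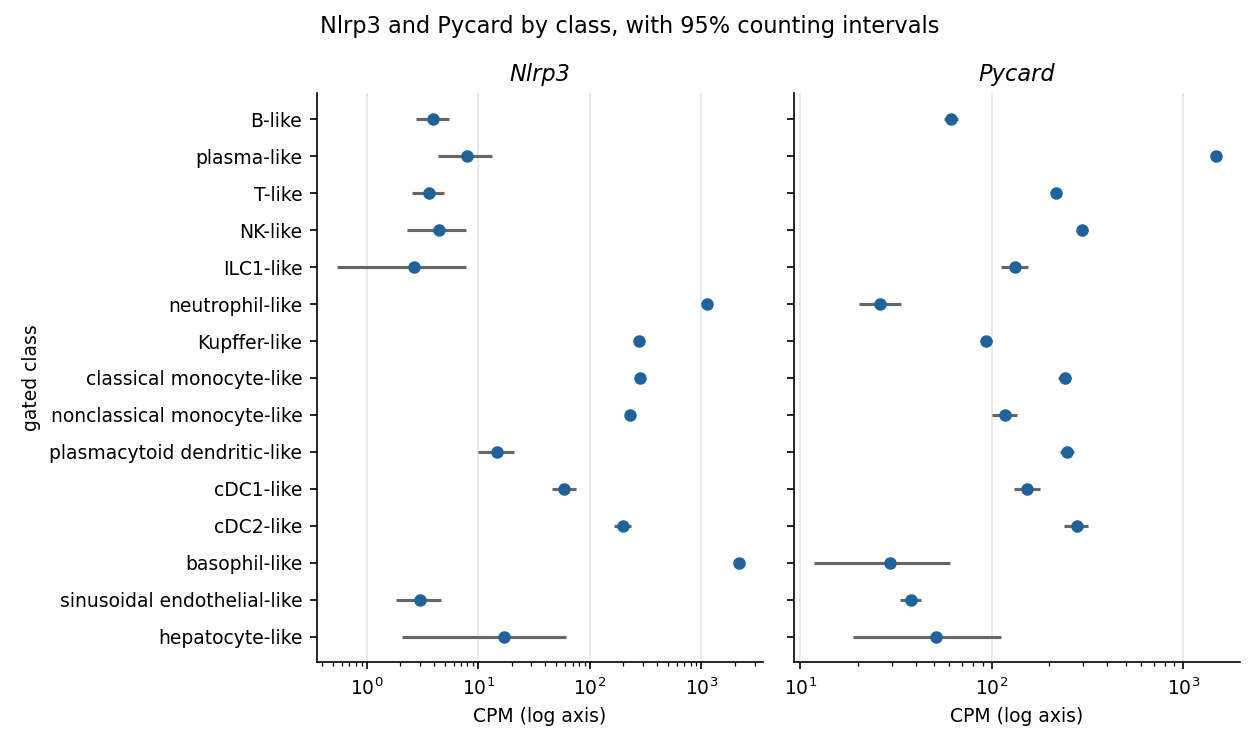
Summed CPM of Nlrp3 (left) and Pycard (right) on log axes in the 15 classes, with points for the level and lines for the exact 95% Poisson interval. The 2 classes highest for Nlrp3, basophil-like (2161) and neutrophil-like (1127), are the 2 lowest for Pycard (29.2 and 26.2). For Pycard, basophil-like cells (7 UMI) were not told apart from sinusoidal endothelial-like cells (37.7), which are low for Nlrp3 (2.99).

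Plasma cells have an expanded secretory apparatus, and 31.3% of the UMI of the class came from immunoglobulin genes and Jchain. Pycard in single plasma-like cells ranged from 0 to 163 UMI, that is from 0 to 5268 CPM, with a median of 928 and quartiles at 380 and 2112 CPM. Only 3 of the 83 cells had no Pycard UMI, and none of these had 5000 UMI or more. The 10 cells with the most Pycard UMI held 40.7% of the total, so that the summed level leans on part of the cells. The 41 cells above the median depth and the 42 others had 1508 and 1452 CPM, a ratio of 1.04 (0.957 to 1.13), which was 0.844 without immunoglobulin UMI. With immunoglobulin UMI taken out of the total, the class stood at 2166 CPM. The 75 plasma-like cells of the main plasma cluster had 1523 CPM, and the 8 outside it 821 (640 to 1037).

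The level differed between plasma-like cells by heavy chain and by cell cycle. The 50 cells whose most abundant heavy chain constant gene was Igha (IgA) had 1846 CPM (1764 to 1931) with a cell median of 1628. The 30 cells with an Ighg gene (IgG) had 1006 CPM (933 to 1083) with a cell median of 551. The ratio of the summed levels was 1.84 (1.68 to 2.005) and that of the medians 2.95. The Ighg cells were not uniform, and the 12 with Ighg2b had 585 CPM (499 to 681). The 14 with Ighg2c had 1274 CPM (1157 to 1400) and the 4 with Ighg1 had 1424 (1157 to 1734). The 3 cells with Ighm held 2 Pycard UMI. Cells in which 8 cycling genes such as Mki67 and Top2a summed to at least 500 CPM had 2237 CPM (24 cells), and the other 59 had 1069. This line was set after the data were seen, and 10 cells lay between 250 and 1000 CPM of cycling genes. Immunoglobulin genes took a median of 17.4% of UMI in cycling and 39.6% in other plasma-like cells. Without immunoglobulin UMI the levels were 2706 and 1755 CPM, a ratio of 1.54 in place of 2.09, and the ratio of Igha to Ighg cells was 1.71. Both differences were seen within the other split. Cycling and other Igha cells had 2664 and 1430 CPM, and cycling and other Ighg cells 1709 and 525. Without immunoglobulin UMI the values were 3242 and 2197 CPM for Igha cells, and 2051 and 969 for Ighg cells, where the ratio was 2.12 in place of 3.25. The groups overlapped cell by cell, since cycling Ighg cells ranged down to 216 CPM and other Igha cells up to 4649.

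**Figure D3:**
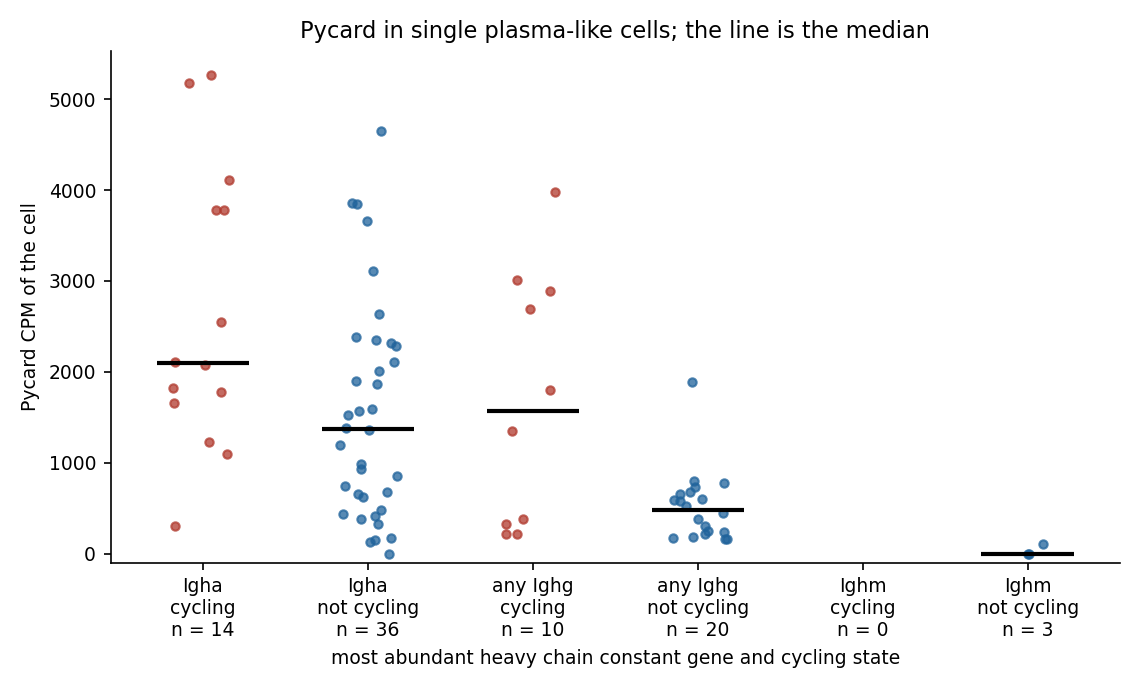
Pycard CPM of each of the 83 plasma-like cells, split by the most abundant heavy chain constant gene and by cycling state (cycling genes at 500 CPM or more), with a line at the median. Non-cycling Ighg cells (n = 20) lie mostly under 1000 CPM with a median of 486, while non-cycling Igha cells (n = 36) have a median of 1375 and reach 4649.

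Cells with and without a UMI of Sdc1 (CD138), a surface marker of mature plasma cells, also differed, with 1234 CPM in the 60 that had one and 2319 in the 23 that did not (ratio of those without to those with, 1.88, 1.73 to 2.04). Immunoglobulin genes took a median of 35.8% of UMI in the former and 15.8% in the latter, and without them the levels were 1870 and 2988 CPM, a ratio of 1.60. Over the 78 cells with at least 5000 UMI, the Spearman rho of Pycard was -0.42 with Sdc1, 0.34 with the cycling genes and -0.06 with depth, after immunoglobulin UMI were removed from each total. Among 1850 genes the highest values were those of Rps3a1 (0.69), Crip1 (0.66) and Anxa2 (0.64), and the lowest those of Fkbp11 (-0.51), an endoplasmic reticulum chaperone, and Slpi (-0.50). These are descriptions of cells of 1 matrix, which share their library.

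RNA of myeloid cells was looked for because Pycard is widely known as a myeloid gene. The 10 pan-myeloid genes (Tyrobp, Fcer1g, Lyz2, Csf1r, Cd68, Ctss, Spi1, Cybb, Aif1 and Itgam) all had UMI in plasma-like cells and summed to 688 CPM. The sum was 808 CPM in B-like, 258 in T-like and 12567 to 32341 in neutrophil-like, Kupffer-like and monocyte-like cells. Ctss (366 against 149 CPM), Cybb (231 against 108) and Spi1 (75.5 against 31.4) were higher in B-like than in plasma-like cells. Every other gene of the list was higher in plasma-like cells. Among them were Lyz2 (130 against 38.6 CPM), Fcer1g (77.5 against 17.0) and Itgam (76.4 against 5.55). The rho of Pycard with the pan-myeloid sum over the 78 cells was 0.01. In the 76 plasma-like cells whose pan-myeloid genes stayed under 1000 CPM, Pycard was at 1473 CPM (1414 to 1534), and in the 7 others at 1651. A limit in UMI gave another value. The 32 cells with fewer than 5 pan-myeloid UMI, with a median depth of 16221 against 23494 UMI in the 51 others, had 1058 CPM (968 to 1154), 3.56 times the level of NK-like cells. Those 51 others had 1652 CPM (1582 to 1724), and the cell medians were 530 CPM in the 32 and 1571 in the 51. The part of myeloid or free RNA in the Pycard level was not tested.

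None of the other members was high in plasma-like cells. Casp1 was at 16.5 CPM there and at 16.3 in B-like cells (ratio 1.01, 0.655 to 1.51), and Casp4 at 34.8 and 30.9 (1.12, 0.838 to 1.49). Gsdmd had 7.41 CPM (13 UMI), the lowest of the 15 classes but not told apart from hepatocyte-like cells with 1 UMI. Nlrp3 had 7.98 CPM (14 UMI in 5 cells). Nlrp1b and Nlrc4 had 1 UMI each. The CPM totals here include immunoglobulin genes and Jchain, which took 31.3% of the UMI of plasma-like cells. Levels without these UMI are given for Pycard and not for the other members. The ratios to B-like cells and the count of members lower in plasma-like cells therefore depend on this total.

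Casp1, the effector protease of canonical inflammasomes, was highest in Kupffer-like (69.4 CPM, 63.9 to 75.3) and classical monocyte-like cells (67.1, 57.8 to 77.4), which were not told apart. Nonclassical monocyte-like cells had 44.3, a step of 1.51 (1.14 to 2.02) below. cDC2-like (41.7), sinusoidal endothelial-like (40.1) and NK-like cells (35.7) followed without separable neighbours, and all other classes lay between 13.6 and 27.0 CPM. The share of cells with a UMI after thinning was 5.34% in Kupffer-like and 1.56% in B-like cells.

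Casp4, the caspase that binds lipopolysaccharide directly, was as high outside the immune classes as within them. Classical monocyte-like cells had 157 CPM (142 to 172) and sinusoidal endothelial-like cells, which line the liver capillaries, 146 (137 to 156), a ratio of 1.07 (0.956 to 1.20). Kupffer-like (94.3) and neutrophil-like cells (90.0) came next, with sinusoidal endothelial-like cells 1.55-fold (1.41 to 1.70) above Kupffer-like cells. Casp1, the neighbouring gene, was 1.73-fold (1.497 to 2.01) lower in sinusoidal endothelial-like than in Kupffer-like cells. Casp4 was 3.05-fold (2.40 to 3.92) higher in classical than in nonclassical monocyte-like cells, while the ratio was 1.51 for Casp1 and 1.11 (0.821 to 1.52) for Gsdmd. cDC1-like cells had 10.9 CPM, and hepatocyte-like cells had no UMI, where 0 of 117195 UMI allows up to 25.6 CPM by the same floor (exact upper limit 31.5). In the immature neutrophil-like cells Casp4 was at 40.8 CPM and in the others at 96.7, a ratio of 2.37 (1.33 to 4.67).

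Gsdmd, the pore-forming substrate of both caspases, changed in small steps between classes. Classical monocyte-like cells had 47.1 CPM (39.4 to 55.8), and no neighbours in the order of the 15 classes were told apart. Neutrophil-like (36.8), cDC1-like (36.2) and Kupffer-like cells (34.2) were not told apart from their neighbours. T-like cells had 17.3 CPM, sinusoidal endothelial-like cells 16.9 and B-like cells 13.3. Classical monocyte-like cells were 6.35-fold (3.59 to 12.2) above plasma-like cells.

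**Figure D4:**
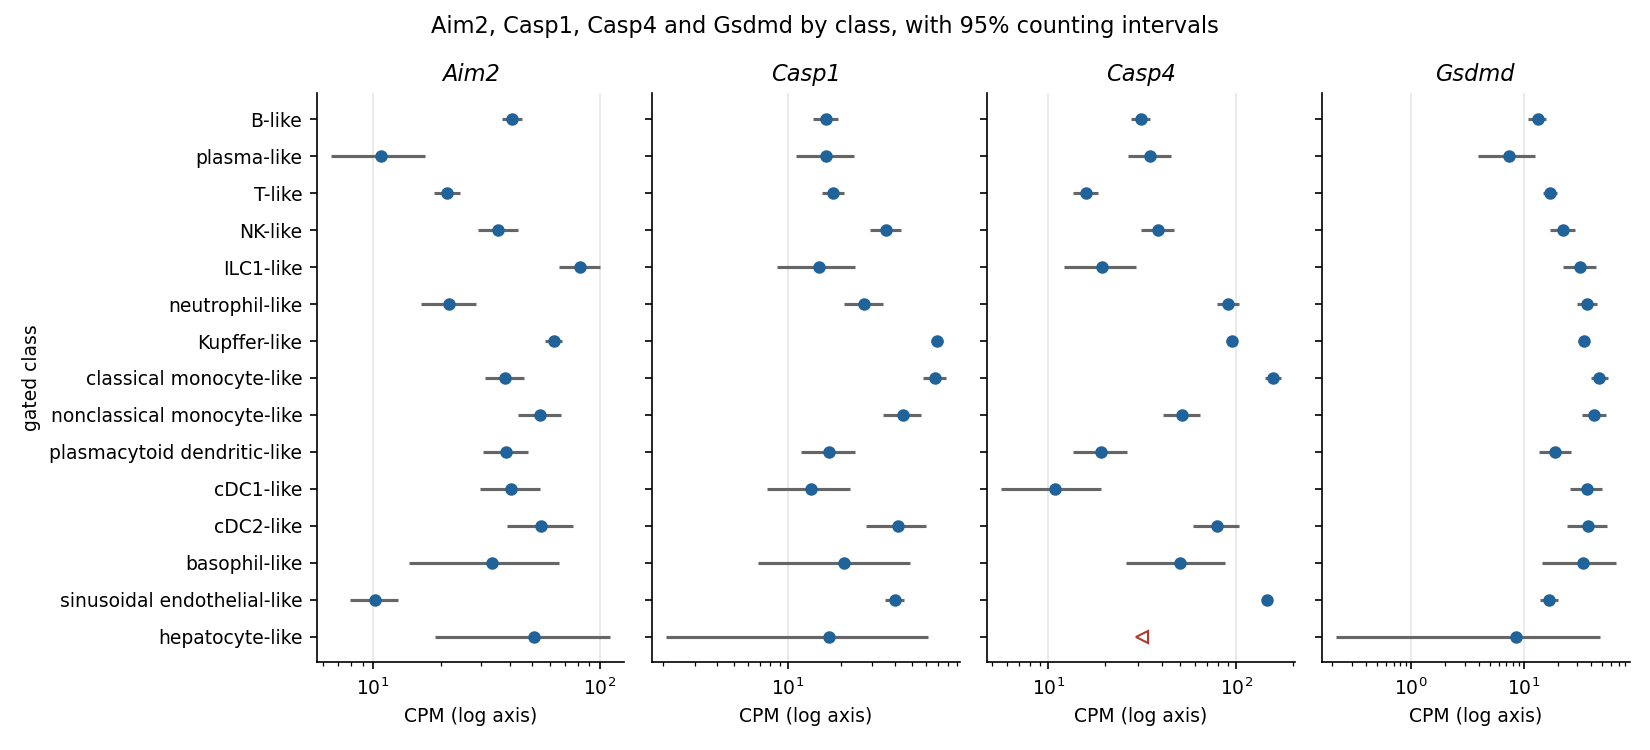
Summed CPM of Aim2, Casp1, Casp4 and Gsdmd on log axes in the 15 classes, with exact 95% Poisson intervals; the open triangle marks the upper bound of a class with 0 UMI. Casp4 in sinusoidal endothelial-like cells (146) is next to classical monocyte-like cells (157), and Gsdmd goes from 7.41 CPM in plasma-like to 47.1 in classical monocyte-like cells.

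The complete set was rarely seen in 1 cell. A UMI of any of the 5 sensors together with Pycard and Casp1 was found in 34.1% of Kupffer-like (30.3 to 38.1%) and 33.7% of classical monocyte-like cells (28.4 to 39.2%), and with Gsdmd as well in 15.6% and 12.9%. In cDC2-like and cDC1-like cells the shares were 27.4% (16.9 to 40.2%) and 16.1% (8.02 to 27.7%). With Gsdmd as well they were 8.06% (2.67 to 17.8%) and 11.3% (4.66 to 21.9%). Neutrophil-like cells held a sensor UMI in 78.9% of cells but all of sensor, Pycard and Casp1 in 0.818%, at their lower depth. Plasma-like cells, the deepest of these, held Pycard and Casp1 together in 20.5% and a sensor with both in 3.61%. After thinning, the share with sensor, Pycard and Casp1 was at most 0.654% in any class (2 of 306 classical monocyte-like cells). At 1000 UMI per cell the classes could not be distinguished by this measure.

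Other genes of the pathway were read from lists. Of 20 further sensors and receptors 13 reached 100 UMI. Of these 13, 7 were at least 2-fold higher in classical monocyte-like cells (6.22% of all genes), 5 in nonclassical monocyte-like (6.28%), 4 in neutrophil-like (7.97%) and 3 in Kupffer-like cells (11.3%). In plasma-like cells 0 were higher (4.91% of all genes) and 11 lower (46.4%). Ifi203 and Ifi204, DNA-sensing relatives of Aim2, reached 605 CPM in sinusoidal endothelial-like and 524 CPM in Kupffer-like cells. Zbp1, a sensor of Z-form nucleic acid, reached 189 CPM in classical monocyte-like cells. Among 19 upstream regulators with 100 UMI, the highest levels were those of Tnfaip3, an inhibitor of NF-kB, in basophil-like cells (1339 CPM), of the kinase Syk in B-like cells (899 CPM) and of Txnip in sinusoidal endothelial-like cells (494 CPM). Of the other caspases and gasdermins, Ninj1, which drives membrane rupture after pore formation, had 362 CPM in Kupffer-like cells, and Casp8 had 139 CPM in sinusoidal endothelial-like cells. Among the cytokine substrates and their antagonists, 3 of 7 were higher in Kupffer-like (11.3% of all genes), 2 in neutrophil-like (7.97%) and 2 in sinusoidal endothelial-like cells (20.3%). Il1b, the main substrate of caspase-1, reached 8707 CPM in neutrophil-like cells, which also had high Nlrp3 and the lowest Pycard. Il18, the other substrate, was highest in Kupffer-like cells (120 CPM), as was its antagonist Il18bp (526 CPM).

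For each member the genes with the most similar profile were taken by Pearson r of log2(CPM + 1) over the 15 classes, among 10385 genes that are no cell type markers. With 15 classes of 1 library that differ in depth, r is a description. Pycard was closest to Ndufa1 (r = 0.90), a respiratory chain subunit, and to Sec61b (0.86) and Sec61a1 (0.85), which form the channel into the endoplasmic reticulum. Nlrp3 was closest to Emilin2 (0.96), the neutrophil-attracting chemokine Cxcl2 (0.95) and Ccl6 (0.95). Casp1 was closest to Ms4a8a (0.90), Naa60 (0.88) and Abca9 (0.87), all highest in Kupffer-like cells. Casp4 was closest to Fbxo30 (0.90), Amdhd2 (0.88) and Pgm1 (0.87). Gsdmd was closest to Arpc5 (0.90), Irak4 (0.89), a kinase of Toll-like receptor signalling, and Ehbp1l1 (0.89). Naip5 was closest to Diaph2 (0.84), Klf10 (0.84) and Slc35b2 (0.83), and Aim2 to Adcy7 (0.83), Mta3 (0.80) and Laptm5 (0.80). The sparse Nlrc4 and Nlrp1b were closest to Abhd12 (0.85), Tank (0.85) and Brpf1 (0.84), and to Cbr3 (0.86), Plbd1 (0.85) and Pak1 (0.85).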

How the data were processed

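The authors deposited, for each sample, a matrix of raw UMI counts, which its values show to be whole and not normalized. The tools listed in the submitters' processing notes are Seurat 2.3.4, STAR and Cell Ranger 2.1.1, with the mm10 build. Per the file headers, software version 3.0.0 wrote the matrix. Barcodes under 500 UMI or 200 genes, or with more than 10% mitochondrial UMI, were dropped (Python 3.11.15, scanpy 1.11.5, numpy 2.4.6, scipy 1.17.1), 778 of them for mitochondrial UMI. Scrublet doublets were left out.

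A cell entered a class when the mean z-score of that class's markers (204 genes in 19 lists, none of them a member) was at least 0.5 and 1.5 times the next, with at least 3 markers detected. Free RNA was not measured here. UMI were summed per class. The fold threshold and the intervals were tested on simulated counts. The simulated counts held counting error only and no variation between cells. Genes named are the members, the 3 highest genes of each pathway list by their level in their top class, and per member the 3 genes with the highest r. Cells within plasma-like, neutrophil-like, T-like and B-like classes were split, and Naip1, Naip2, Naip6, Il18 and genes ranked within plasma-like cells were chosen, after their values were seen. The members and lists were chosen with earlier results of these data known, and the scoring of the gates was set after the data were seen. Alternatives changed the filters, doublets, gates, CPM total, weighting, thinning and pseudocount.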

Additional observations from a re-analysis of the deposited data

How the results depend on the processing

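No paired analysis was possible because the labels carry no replicate numbers and both samples hold 1 matrix. Of 12 alternatives, 9 were planned and 3, all on plasma-like cells, were chosen after seeing the data. The class with the highest level was the same under all 7 planned settings that redefine classes or levels for each member except Casp1, whose highest class was classical monocyte-like with the reduced CPM total. Leaving mitochondrial, ribosomal, haemoglobin, immunoglobulin and abundant hepatocyte genes out of the total gave Pycard 2980 CPM in plasma-like cells, 7.85 times the next class, Nlrp3 2691 CPM in basophil-like cells and 3 members lower in B-like cells. Clusters in place of gates gave a Pycard ratio of 5.50 and 2 members higher in nonclassical monocyte-like cells, and held no cDC2-like class. The mean of single-cell CPM gave Nlrp3 2366 CPM in basophil-like cells, and 3, 2 and 2 members higher in Kupffer-like, nonclassical monocyte-like and cDC2-like cells. At most 5% mitochondrial UMI gave 2 members in nonclassical monocyte-like cells. A pseudocount of 10 CPM gave 3 members higher in classical monocyte-like and 3 lower in B-like and T-like cells. Without plasma-like cells with 5 or more pan-myeloid UMI, Pycard was at 1058 CPM and 3.56 times the next class. The cause of these shifts was not tested. Of the 121 other values, 92 stayed within the counting interval and 29 did not. Depth limits Nlrp1b (98 UMI) and Nlrc4 (326 UMI) most.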

Other observations

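Pycard also differed among T-like cells. The 44 with a Foxp3 UMI, a marker of regulatory T cells, had 408 CPM (340 to 484), against 189 CPM (171 to 208) in the 384 others with Cd4 and no Cd8 UMI, a ratio of 2.16 (1.76 to 2.63). The 911 cells with Cd8 and no Cd4 UMI had 250 CPM (238 to 264). Cells with neither Ccr7 nor Lef1 UMI, genes of naive T cells, had 266 CPM of Pycard and 28.2 CPM of Aim2, against 194 and 18.2 CPM in cells with either, ratios of 1.37 (1.25 to 1.49) and 1.55 (1.18 to 2.03). In the same split Casp1 was at 30.1 CPM (24.4 to 36.6) against 12.8 (10.4 to 15.6). Casp4 was at 25.5 CPM (20.3 to 31.6) against 11.6 (9.32 to 14.3), and the intervals of the remaining members overlapped. A split by 1 UMI depends on depth, and the medians were 4562 and 5392 UMI.

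Among B-like cells, Pycard was lower in the 799 with Fcer2a and without Vpreb3 or Cd93 UMI (46.5 CPM) than in the 1061 with Vpreb3 or Cd93, genes of immature B cells (71.4 CPM; ratio 0.651, 0.525 to 0.804). Aim2 was at 40.6 CPM in both (ratio 0.999, 0.779 to 1.28). Among cells left out of the classes, Pycard was at 150 CPM and Nlrp3 at 123 CPM in the 945 cells with markers of 2 classes, and at 126 and 160 CPM in the 351 doublets.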
